A study of Homo sapiens with 4 samples.

Results

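The BCL2 family decides whether a cell starts apoptosis through its mitochondria. The 10 family genes described here were *BCL2*, *BCL2L1*, *BCL2L2*, *MCL1*, *BCL2A1*, *BCL2L11*, *BAX*, *BAK1*, *BBC3*, and *PMAIP1*, out of 20033 protein-coding genes in GENCODE 44. They were chosen by name. A peak belonged to a gene when it overlapped the gene body or the 10 kb on either side of it, and it was a promoter peak when its centre lay between 1000 bp upstream and 100 bp downstream of one of the gene's annotated start sites.

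The peaks came from CUT&RUN, in which an antibody guides micrococcal nuclease to a chromatin protein and the DNA fragments set free around it are sequenced. The cells were HSSY II, a human synovial sarcoma (SS) line that carries the fusion oncoprotein SS18::SSX, with murine NIH-3T3 cells added as a spike-in. They were kept for 4 days with DMSO or with 2.5 µM MS67, a degrader that brings the chromatin protein WDR5 to the VHL ubiquitin ligase, and SS18::SSX and WDR5 were each profiled after both treatments to ask where the fusion and WDR5 sit on chromatin and how this differs with MS67. Each of the 4 conditions, SS18::SSX with DMSO, SS18::SSX with MS67, WDR5 with DMSO, and WDR5 with MS67, was 1 library of this 1 line, so no difference below had a replicate check and no test between treatments was made. Peak lists hold no expression, so the identity of the cells could not be checked against markers here.

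Survival proteins of the family, such as BCL2, BCL-XL (the product of *BCL2L1*), and MCL1, hold the effectors BAX and BAK1 in check. BH3-only proteins, such as BIM (*BCL2L11*), PUMA (*BBC3*), and NOXA (*PMAIP1*), bind the survival proteins and free or activate the effectors, which then open the outer mitochondrial membrane and release cytochrome c. *BBC3*, *PMAIP1*, and *BAX* are known targets of P53, and strong BCL2 protein is a known feature of SS.

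The 4 lists held 15141 SS18::SSX peaks with DMSO, 1175 with MS67, 35605 WDR5 peaks with DMSO, and 14123 with MS67. Depth was read from each summit, where the authors' fold enrichment over the local background and their p-value together give a whole number of fragments. Genome-wide coverage was 0.541 fragments per bp for SS18::SSX with DMSO and 0.737 with MS67, and 0.368 for WDR5 with DMSO and 0.168 with MS67. The MS67 library was thus 1.36 times as deep as its DMSO partner for SS18::SSX and 0.458 times as deep for WDR5. All intervals below are at 95% and cover counting error only.

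SS18::SSX was called at 3 of the 10 family genes with DMSO and at 1 with MS67. With DMSO, *BCL2* held 4 SS18::SSX peaks, *BBC3* 2, and *PMAIP1* 1, and the windows of the other 7 genes held 0. Of all protein-coding genes, 31.8% had an SS18::SSX peak in the window with DMSO and 3.63% with MS67, so the 3 of 10 family genes with DMSO were close to the background, and the 1 of 10 with MS67 rested on a single gene. *BCL2* and *BBC3* carried the peak at a promoter of their own with DMSO, where 13.4% of all genes had one, and 0 of the 10 did with MS67, where 0.719% of all genes had one. Each of the 7 DMSO peaks had no overlapping SS18::SSX peak with MS67 (100%, exact Clopper-Pearson interval 59.0 to 100), and none had one within 1 kb. Over the whole SS18::SSX list 94.2% had no overlapping peak and 89.7% none within 1 kb, and both shares lie within that interval.

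WDR5 was far more widespread over the family. With DMSO it was called at 9 of the 10 genes in 40 peaks, and with MS67 at 6 genes in 16 peaks. The matching shares of all protein-coding genes were 75.0% with DMSO and 54.1% with MS67. The 5 survival genes held 28 WDR5 peaks with DMSO and 13 with MS67, the 2 effectors 5 and 2, and the 3 BH3-only genes 7 and 1. These counts are not scaled by window length, and *BCL2*, with the longest window of the 10, alone held 15 and 2 of those at survival genes. Promoter peaks stood at 5 genes with DMSO (*BCL2*, *BCL2L1*, *BCL2L2*, *BAK1*, and *PMAIP1*), against 43.0% of all genes. With MS67 they stood at 3 (*BCL2L1*, *BCL2L2*, and *PMAIP1*), against 27.7% of all genes. The 3 genes with a WDR5 promoter peak after both treatments were 3 of the 5 with a DMSO one, and over all genes that share was 49.9%. *BCL2A1*, a survival gene best known from blood cells, held 0 peaks in each of the 4 lists.

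**Figure D1:**
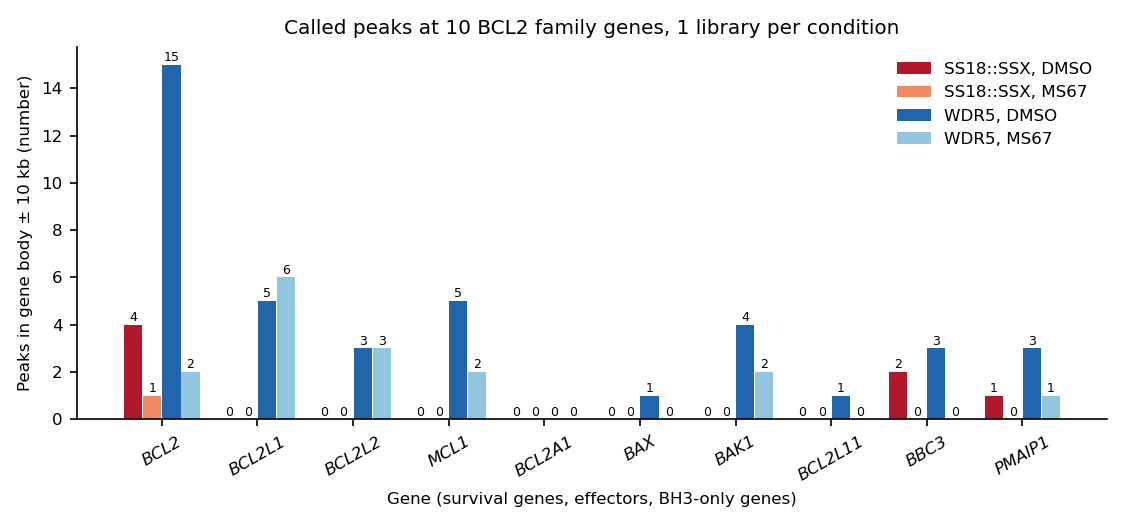
Number of called peaks in the gene body and 10 kb on either side (vertical axis) for each of the 10 genes, with 1 bar per library and its count above it; there are no error bars because each condition was 1 library. *BCL2* has the highest DMSO bar for each target, with 4 SS18::SSX and 15 WDR5 peaks, while *BCL2L1* has 5 WDR5 peaks with DMSO and 6 with MS67.

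Of the 40 WDR5 peaks with DMSO, 31 had no overlapping WDR5 peak with MS67 (77.5%, interval 61.5 to 89.2), against 75.0% of the whole WDR5 list. *BCL2* accounted for 14 of the 31, with 14 of its 15 peaks lost (93.3%, interval 68.1 to 99.8), and the other genes lost 17 of 25 (68.0%, interval 46.5 to 85.1). Both intervals hold the 75.0% of the whole list. Since the MS67 library of WDR5 was the shallower one, each peak's fragments and background were also scaled to its coverage. Of the 40 peaks, 25 still reached the lowest −log10 p of the MS67 list, and 18 of these 25 were lost (72.0%), against 67.0% of the peaks in the whole list that passed in the same way. Counting any MS67 peak within 1 kb as kept, 25 of the 40 were lost (62.5%), against 61.0% of the whole list. All 7 SS18::SSX peaks passed at the MS67 coverage of that target, which was the deeper of the pair, as did 99.6% of the whole list. This scaling carried over the DMSO background. The median local background divided by coverage was 5.72 over the SS18::SSX peaks with DMSO and 12.2 over those with MS67. Passing therefore does not show that these 7 peaks could have been called with MS67.

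The counts above use every deposited peak. In one comparison of peak lists the study kept only peaks with a −log10 q above 3, with a fold above 3 where the target was SS18::SSX and above 6 where it was WDR5. By that standard, added here after the data were seen, 5 SS18::SSX peaks remained with DMSO, at *BCL2*, *BBC3*, and *PMAIP1*, and 0 with MS67. These were 3 and 0 of the 10 genes, against 21.2% and 1.73% of all genes. For WDR5, 4 peaks remained with DMSO, 3 at *BAK1* and 1 at *BCL2L1*, and 4 with MS67, 2 at *BCL2L1* and 1 each at *BAK1* and *PMAIP1*. These were 2 and 3 of the 10 genes, against 30.5% and 16.8% of all genes. None of the 15 WDR5 peaks at *BCL2* with DMSO met the standard, since the highest fold among them was 5.39, and no family promoter kept a WDR5 peak with DMSO. The WDR5 peaks at *MCL1* and *BBC3* likewise all had folds under 6.

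By direct overlap, the share of SS18::SSX peaks with WDR5 at the family genes was near that of the whole list, while within 1 kb it was higher. Of the 7 SS18::SSX peaks with DMSO, 4 were at *BCL2*, whose window also held 15 WDR5 peaks. With DMSO, an overlap of at least 1 bp with WDR5 was found for 3 of the 7 peaks of the fusion (42.9%, interval 9.90 to 81.6), against 33.7% of the whole SS18::SSX list. The other 4 lay 33, 85, 423, and 704 bp from the nearest WDR5 peak, so all 7 had WDR5 within 1 kb (100%, interval 59.0 to 100). Over the whole list 54.9% did, just below that interval, which treats the peaks as independent although 4 of the 7 lay at 1 gene. The 3 overlapping pairs were at the *BCL2* promoter, in the *BCL2* intron, and in *PMAIP1*.

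*BCL2* encodes the founding survival protein of the family and stood out by its number of WDR5 peaks. The gene runs over 196783 bp of the minus strand of chromosome 18 (hg38, chr18:63123346-63320128), and its window of 216.8 kb is the longest of the 10. Its 15 WDR5 peaks with DMSO came to 6.92 per 100 kb of window, against 2.29 over the windows of all protein-coding genes. By that measure *BCL2* did not lead the family. The value was higher at *BAK1* (14.4), *MCL1* (12.9), *PMAIP1* (12.3), *BBC3* (9.39), and *BCL2L2* (9.10). It was lower at *BCL2L1*, *BAX*, *BCL2L11*, and *BCL2A1*. Only 85 of the 20033 genes had 15 or more WDR5 peaks with DMSO, *BCL2* included. Among the 998 other genes with a window of similar length (within 20%), 7 had as many WDR5 peaks and 71 had as many SS18::SSX peaks as the 4 at *BCL2*, and the median gene had 2 and 0. With MS67, 318 of the 998 had at least the 2 WDR5 peaks found at *BCL2*.

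**Figure D2:**
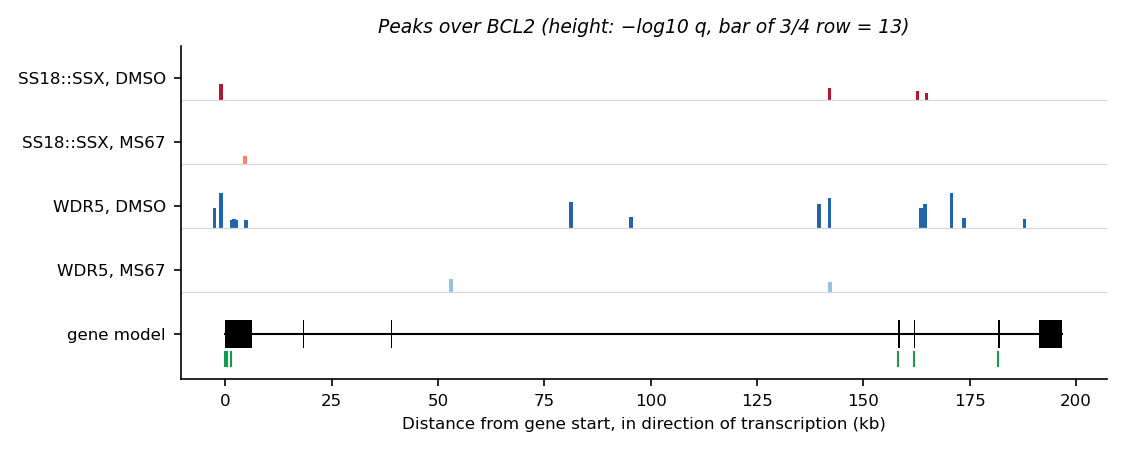
Peaks over *BCL2* by distance from the gene start in kb (horizontal axis, direction of transcription to the right), with 1 row per library and bar height proportional to −log10 q; black boxes are exons of any transcript, green ticks annotated start sites, and bars narrower than the line width are drawn wider than the peak. The WDR5 DMSO row fills around the start and from 139.5 to 187.9 kb beyond it, and 2 WDR5 bars remain in the MS67 row.

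The 15 peaks fell into 3 stretches. Around the start, 6 peaks lay within 7.6 kb. In the middle of the gene, 2 peaks lay 81.2 and 95.4 kb from the start. Toward its end, 7 peaks lay within 48.7 kb, from 139.5 to 187.9 kb beyond the start. With MS67 the stretch at the start and the pair in the middle had 0 overlapping peaks left, and the last stretch had 1. Only 2 of the 6 peaks around the start, 1 of the 2 in the middle, and 5 of the 7 toward the end would have passed at the MS67 coverage.

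The *BCL2* promoter carried both proteins. The SS18::SSX peak with DMSO at chr18:63320834-63321237, centred 907 bp before the start site, had 16 fragments at its summit (interval 9.15 to 26.0), a fold enrichment of 4.49 over the local background, and a −log10 q of 4.44, higher than 64.1% of its list. The WDR5 peak with DMSO at chr18:63320809-63321373 covered it whole, with 32 fragments (interval 21.9 to 45.2), a fold of 4.68, and a −log10 q of 9.60, higher than 91.9% of its list. With MS67 neither target had a peak there or within 1 kb. This was the family promoter where the fusion and WDR5 overlapped. The sequence of the WDR5 summit is shown because its −log10 q was the highest of the promoter peaks of the survival genes. The sequence is the 300 bases at chr18:63320769-63321068, minus strand, hg38, 62.0% G and C, and lies before the annotated start. The capitals mark matches to 3 motifs, each searched on both strands. The CCAAT box is bound by NF-Y. The GC box, spelled GGGCGG, is bound by SP1 and its relatives. The E box searched, with the letters CACGTG, is bound by MYC and USF factors:
BCL2 promoter: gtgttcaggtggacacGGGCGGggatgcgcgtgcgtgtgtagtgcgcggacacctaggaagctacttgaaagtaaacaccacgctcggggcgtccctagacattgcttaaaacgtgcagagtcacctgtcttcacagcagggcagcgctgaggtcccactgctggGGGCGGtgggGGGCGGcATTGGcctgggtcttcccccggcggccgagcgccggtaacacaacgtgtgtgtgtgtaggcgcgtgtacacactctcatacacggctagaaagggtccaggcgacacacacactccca

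It held 3 GC boxes, 1 CCAAT box on the opposite strand, and 0 E boxes. It lies upstream of the RefSeq promoter of *BCL2*, chr18:63319720-63320019, which held none of these motifs. Of the windows of 300 bases around all WDR5 DMSO promoter summits, 48.2% held a GC box, 23.9% a CCAAT box, and 6.83% an E box, on either strand.

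The other 5 WDR5 peaks near the *BCL2* start were weaker. One was centred 2481 bp before the start, with a fold of 3.92 and a −log10 q of 5.56. The other 4 lay from 1.6 to 4.9 kb into the gene, in coding or 3′ UTR sequence of a transcript that ends early, with −log10 q from 2.12 to 2.60 and 15 to 21 fragments. These 4 would not have passed at the MS67 coverage. The single SS18::SSX peak with MS67, at chr18:63315321-63315769, lay among them, centred 4583 bp after the start in the same 3′ UTR, with 25 fragments (interval 16.2 to 36.9), a fold of 2.90, and a −log10 q of 2.31. It overlapped the farthest of those 4 WDR5 peaks but no SS18::SSX peak with DMSO, the nearest of which was 5064 bp away. Of the whole SS18::SSX MS67 list, 26.9% had no DMSO partner.

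A site in a *BCL2* intron, 142.1 kb after the start, also carried both proteins, and there WDR5 was still called with MS67. The SS18::SSX peak with DMSO, chr18:63177838-63178284, had 15 fragments (interval 8.40 to 24.7), a fold of 3.90, and a −log10 q of 3.30. The WDR5 peak with DMSO, chr18:63177833-63178292, had 39 fragments (interval 27.7 to 53.3), a fold of 3.60, and a −log10 q of 8.16. The WDR5 peak with MS67, chr18:63177838-63178004, had 18 fragments (interval 10.7 to 28.4), a fold of 3.30, and a −log10 q of 2.76. Divided by the coverage of its own library, the WDR5 summit stood at 106.1 with DMSO and 106.8 with MS67, a ratio of 1.01 (interval 0.542 to 1.80). At this site the WDR5 pileup thus differed by less than its counting error, at summits 86 bp apart and without spike-in scaling. Such a ratio exists only where WDR5 was still called with MS67, in the shallower library, and the interval does not cover this selection. SS18::SSX was called with DMSO and not with MS67, so its pileup could not be compared in the same way. The 300 bases around the SS18::SSX summit, chr18:63178054-63178353, minus strand, hg38, were 49.3% G and C. They begin 49 bp beyond the WDR5 peak called with MS67, and are shown as the intronic bases where the fusion was highest with DMSO, with the same motifs in capitals:
BCL2 intron: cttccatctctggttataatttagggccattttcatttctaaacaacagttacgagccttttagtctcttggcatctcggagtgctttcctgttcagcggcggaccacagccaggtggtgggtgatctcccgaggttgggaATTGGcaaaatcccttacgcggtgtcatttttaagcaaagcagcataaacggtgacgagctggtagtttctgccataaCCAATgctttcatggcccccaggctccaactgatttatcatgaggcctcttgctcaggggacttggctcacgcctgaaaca

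This stretch held 2 CCAAT boxes, 1 on each strand, and 0 GC boxes and E boxes. Further into the gene, the remaining 2 SS18::SSX peaks with DMSO lay 162.7 and 164.9 kb from the start, each with 12 fragments (interval 6.20 to 21.0) and a −log10 q of 2.36 and 1.86. Both sat beside WDR5 peaks in the same intron, centred 163.5 and 164.5 kb from the start, with −log10 q of 5.57 and 6.60. The strongest WDR5 peak of the stretch, 170.7 kb from the start at chr18:63149285-63149499, had 34 fragments, a fold of 4.46, and a −log10 q of 9.60, and had no SS18::SSX partner. With MS67, WDR5 also had a peak of its own, with no DMSO partner, in an intron 53.0 kb from the start at chr18:63267024-63267183, with 10 fragments (interval 4.80 to 18.4), a fold of 5.20, and a −log10 q of 3.77.

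The local WDR5 background over *BCL2* was high. Background over coverage had a median of 17.4 and reached 36.4 at the 15 DMSO peaks, against a median of 4.91 over the whole list, and was 28.2 at the intron site with MS67. For SS18::SSX with DMSO it ran from 4.75 to 5.74, against 5.72 in the list. The WDR5 folds at *BCL2* are measured against this raised background, and its part in the count of peaks was not tested. The 3 protein-coding genes of similar window length whose peaks per 100 kb in the 4 lists were nearest to those of *BCL2* were *NFATC2* with 3, 0, 15, and 2 peaks, *TCF20* with 5, 0, 13, and 3, and *FKBP5* with 2, 0, 11, and 1, in the order SS18::SSX with DMSO and MS67, then WDR5 with DMSO and MS67.

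*BCL2L1*, which encodes BCL-XL, held 5 WDR5 peaks with DMSO and 6 with MS67. Of the 6, 2 fell within 1 DMSO peak, so they stood for 5 sites. It had no SS18::SSX peak. Its strongest WDR5 peak with DMSO, chr20:31661669-31662552, lay beyond the 3′ end of the gene, 61.9 kb from the start, and had 20 fragments (interval 12.2 to 30.9), a fold of 8.94, and a −log10 q of 12.9, higher than 97.3% of the list. With MS67 it was called as 2 narrower peaks, with folds of 7.45 and 6.10 and −log10 q of 6.66 and 4.60. The peak in the last intron, 53.0 kb from the start, was also called after both treatments, with 6 fragments with DMSO and 4 with MS67. Of the 2 promoter peaks with DMSO, the stronger, chr20:31722689-31722893, lay in the 5′ UTR, 77 bp after an internal start site, with 20 fragments, a fold of 5.07, and a −log10 q of 6.98. It had no overlapping MS67 peak, but an MS67 promoter peak, chr20:31723484-31723644, was called 590 bp away, with 8 fragments (interval 3.45 to 15.8), a fold of 4.15, and a −log10 q of 2.22. The nearest annotated start sites of these 2 peaks differed. *BCL2L1* thus had a WDR5 promoter call after both treatments, but not at the same site. The stronger peak also overlapped ABALON, a long noncoding RNA gene inside *BCL2L1*.

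In the windows of the remaining survival genes, most WDR5 peaks lay over neighbouring genes or at their promoters. *BCL2L2*, which encodes BCL-W, held 3 WDR5 peaks with DMSO (−log10 q from 3.04 to 6.12) and 3 with MS67 (2.58 to 3.15), none of which overlapped. Peaks of both treatments lay within the overlapping gene *PPP1R3E*, and one MS67 peak was centred at the promoter of *PABPN1*. The *BCL2L2* promoter peak with MS67, 2.7 kb from the gene start, and one with DMSO, at 3.3 kb, were also centred at a *PPP1R3E* promoter. The other with DMSO, at 8.9 kb, was at a promoter of *BCL2L2* alone. *MCL1*, which encodes a short-lived survival protein, held 5 and 2. Its 2 peaks called after both treatments, 17.5 and 18.3 kb from the gene start, were centred at promoters of *ADAMTSL4-AS1* and of another noncoding gene, ENSG00000289457, inside an intron of a long *MCL1* transcript. At those 2 sites the fold was 5.14 and 4.61 with DMSO and 5.35 and 5.07 with MS67. The only peak in the coding part of *MCL1*, 2.4 kb from the start, had 10 fragments, a fold of 4.63, and a −log10 q of 3.69 with DMSO and was not called with MS67. No *MCL1* promoter peak was called in any of the 4 lists.

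Among the effectors, *BAK1* carried WDR5 and *BAX* did not on its own. The strongest *BAK1* peak with DMSO, chr6:33570824-33571609, lay beyond the 3′ end of the gene, with 20 fragments (interval 12.2 to 30.9), a fold of 8.84, and a −log10 q of 12.8. It was still called with MS67, with 13 fragments (interval 6.92 to 22.2), a fold of 9.38, and a −log10 q of 9.97, higher than 98.9% of that list. This was the highest fold of any family peak after either treatment. A peak in the first intron, centred 744 bp from the start, was also called after both treatments, with folds of 6.82 and 4.82. The peak over the start itself, chr6:33580145-33580439, had 11 fragments (interval 5.49 to 19.7), a fold of 4.36, and a −log10 q of 3.56, and was not called with MS67, at whose coverage it would not have passed. The 208 bases that run from this start upstream, chr6:33580294-33580501, minus strand, hg38, 57.2% G and C, held 2 GC boxes and 1 CCAAT box, and are shown as the one effector promoter with a peak:
BAK1 promoter: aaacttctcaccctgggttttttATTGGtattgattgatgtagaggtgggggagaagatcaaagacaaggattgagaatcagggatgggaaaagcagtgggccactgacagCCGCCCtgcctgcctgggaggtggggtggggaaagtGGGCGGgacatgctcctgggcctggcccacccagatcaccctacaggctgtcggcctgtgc

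Of windows of 208 bases around all WDR5 DMSO promoter summits, 37.1% held a GC box and 16.1% a CCAAT box. The single peak in the *BAX* window, chr19:48963980-48964744, lay 9.5 kb from the *BAX* start and was centred at the promoter of the neighbouring *FTL*, the gene of the ferritin light chain. It had 17 fragments, a fold of 4.49, and a −log10 q of 5.17, and was not called with MS67.

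The BH3-only genes held the other SS18::SSX peaks. *BBC3*, which encodes the P53 target PUMA, was called in each DMSO list and in neither MS67 list. Its first SS18::SSX peak, chr19:47226768-47227524, had 19 fragments (interval 11.4 to 29.7), a fold of 5.25, and a −log10 q of 6.46, and lay at an internal start site of a noncoding transcript, 5620 bp after the gene start. The second, chr19:47240373-47240892, lay 7866 bp before the gene start, with 20 fragments (interval 12.2 to 30.9), a fold of 5.47, and a −log10 q of 7.13, the highest of the 7 SS18::SSX peaks and above 87.9% of the list. The 3 WDR5 peaks with DMSO stood near both, at 3502 and 4351 bp after and 8452 bp before the start, with folds of 3.97, 3.81, and 5.85 and −log10 q of 6.37, 5.76, and 7.93. Each would have passed at the MS67 coverage. The 300 bases around the summit of the internal promoter peak, chr19:47227017-47227316, minus strand, hg38, 61.3% G and C, are shown because it was the other family promoter with the fusion:
BBC3 internal promoter: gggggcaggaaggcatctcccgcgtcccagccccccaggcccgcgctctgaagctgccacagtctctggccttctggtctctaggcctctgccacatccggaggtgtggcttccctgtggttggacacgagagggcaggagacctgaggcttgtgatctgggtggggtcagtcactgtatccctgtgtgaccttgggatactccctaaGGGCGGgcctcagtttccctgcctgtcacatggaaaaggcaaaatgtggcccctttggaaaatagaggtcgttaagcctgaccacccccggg

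It held 1 GC box and 0 CCAAT boxes and E boxes. At the first annotated start of *BBC3*, no promoter peak was called in any of the 4 lists.

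*PMAIP1*, which encodes the P53 target NOXA, carried WDR5 around its start after both treatments. With DMSO, WDR5 was called in 3 peaks around the start, centred 427 bp before it and 559 and 1048 bp after it, with 14, 19, and 21 fragments, folds of 2.85, 3.70, and 4.08, and −log10 q of 1.89, 4.26, and 5.44. With MS67 it was called in 1 broad peak over the start, chr18:59899693-59900548, with 21 fragments (interval 13.0 to 32.1), a fold of 6.10, and a −log10 q of 7.96, higher than 97.1% of that list. The MS67 library thus had as many fragments at its summit as the deeper DMSO library had at its highest one. The single SS18::SSX peak with DMSO, chr18:59900389-59900649, was centred 523 bp after the start, with 12 fragments (interval 6.20 to 21.0), a fold of 4.40, and a −log10 q of 3.37, and overlapped the middle WDR5 peak over 202 bp. It was not called with MS67. The 300 bases before the start, chr18:59899696-59899995, plus strand, hg38, lie within the MS67 peak, whose summit itself was in the 5′ UTR, and are shown as the promoter bases that this peak covers:
PMAIP1 promoter: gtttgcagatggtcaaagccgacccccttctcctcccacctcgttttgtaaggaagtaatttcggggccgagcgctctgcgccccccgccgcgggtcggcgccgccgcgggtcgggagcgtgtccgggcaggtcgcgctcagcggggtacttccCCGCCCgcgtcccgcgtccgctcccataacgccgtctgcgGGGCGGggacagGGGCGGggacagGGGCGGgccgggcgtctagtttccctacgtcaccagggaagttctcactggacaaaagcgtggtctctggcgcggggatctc

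They were 69.7% G and C and held 4 GC boxes, 3 of them in a row near the start, and 0 CCAAT boxes and E boxes.

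The 9 WDR5 DMSO peaks that were also called with MS67 allow a comparison of the highest pileup of each peak. Each summit pileup was divided by the coverage of its own library, and the MS67 value by the DMSO value. Only sites called in the shallower MS67 library enter, so sites whose MS67 pileup was too low to be called are left out. This selection favours high ratios, and the intervals do not cover it. Over all 8897 kept peaks of the genome this ratio had a median of 1.27, with 5% below 0.671 and 5% above 2.18, and over the 9 family peaks a median of 1.43. The 2 *PMAIP1* peaks, which share the same MS67 peak, had 3.27 (interval 1.59 to 6.96) and 2.41 (interval 1.23 to 4.74), above 99.6% and 96.6% of all kept peaks. Their summits lay 671 and 422 bp from the MS67 summit, so these ratios set different bases of the region side by side. The summits stood at 38.1 and 51.7 times coverage with DMSO, and the MS67 summit at 124.6. Against the highest DMSO summit near the start, at 57.1 in the third peak, which the MS67 peak did not overlap, the ratio was 2.18 (interval 1.13 to 4.20), equal to the level that 5% of all kept peaks exceeded. At the other 7 peaks the summits lay from 7 to 213 bp apart. Their ratios ran from 0.898 at the first intron of *BAK1* to 1.52 at *MCL1*, and each of their intervals held both 1 and the genome median. The ratio compares peaks within 1 pair of libraries and says nothing of the absolute WDR5 level, since no spike-in scaling entered it.

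**Figure D3:**
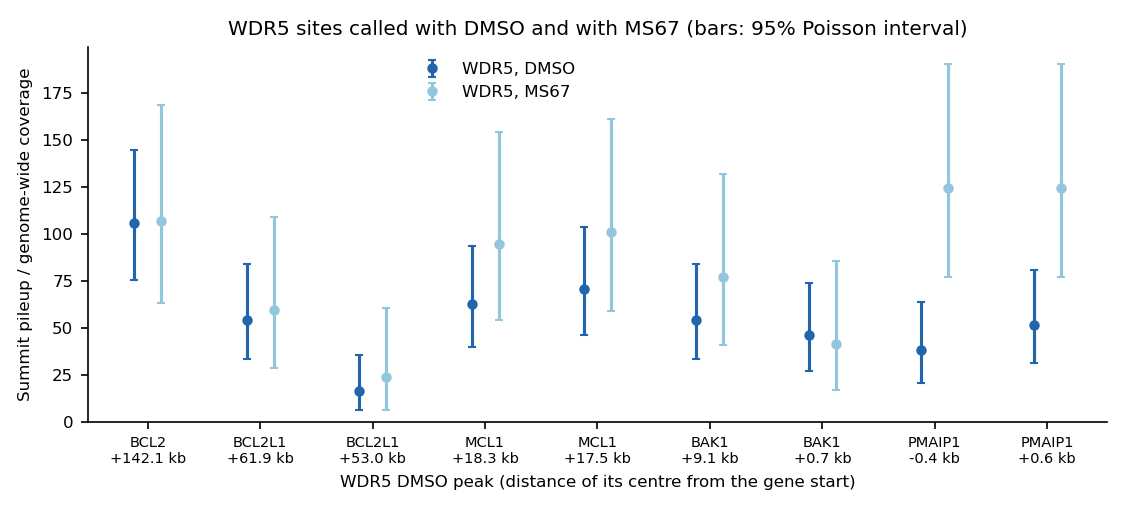
Summit pileup divided by the genome-wide coverage of the same library (vertical axis, linear, from 0) at the 9 WDR5 DMSO peaks with an overlapping MS67 peak, labelled by gene and by distance of the DMSO peak from the gene start; points are 1 library each, bars the 95% Poisson interval of the fragment count, and both *PMAIP1* positions show the same MS67 peak. The *PMAIP1* DMSO summits, at 38.1 and 51.7, lie 671 and 422 bp from the MS67 summit at 124.6, and the third DMSO peak there, at 57.1, is not plotted because no MS67 peak overlapped it. *BCL2* stands at 106.1 and 106.8.

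*BCL2L11*, which encodes BIM, held 1 peak in all. The WDR5 peak with DMSO at chr2:111117815-111118158 was centred 1392 bp before the first start, within the neighbouring *ACOXL* and *MIR4435-2HG*, with 27 fragments (interval 17.8 to 39.3), a fold of 5.50, and a −log10 q of 9.94, the highest of any BH3-only gene and above 92.9% of its list. It was not called with MS67 although it would have passed at that coverage.

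**Figure D4:**
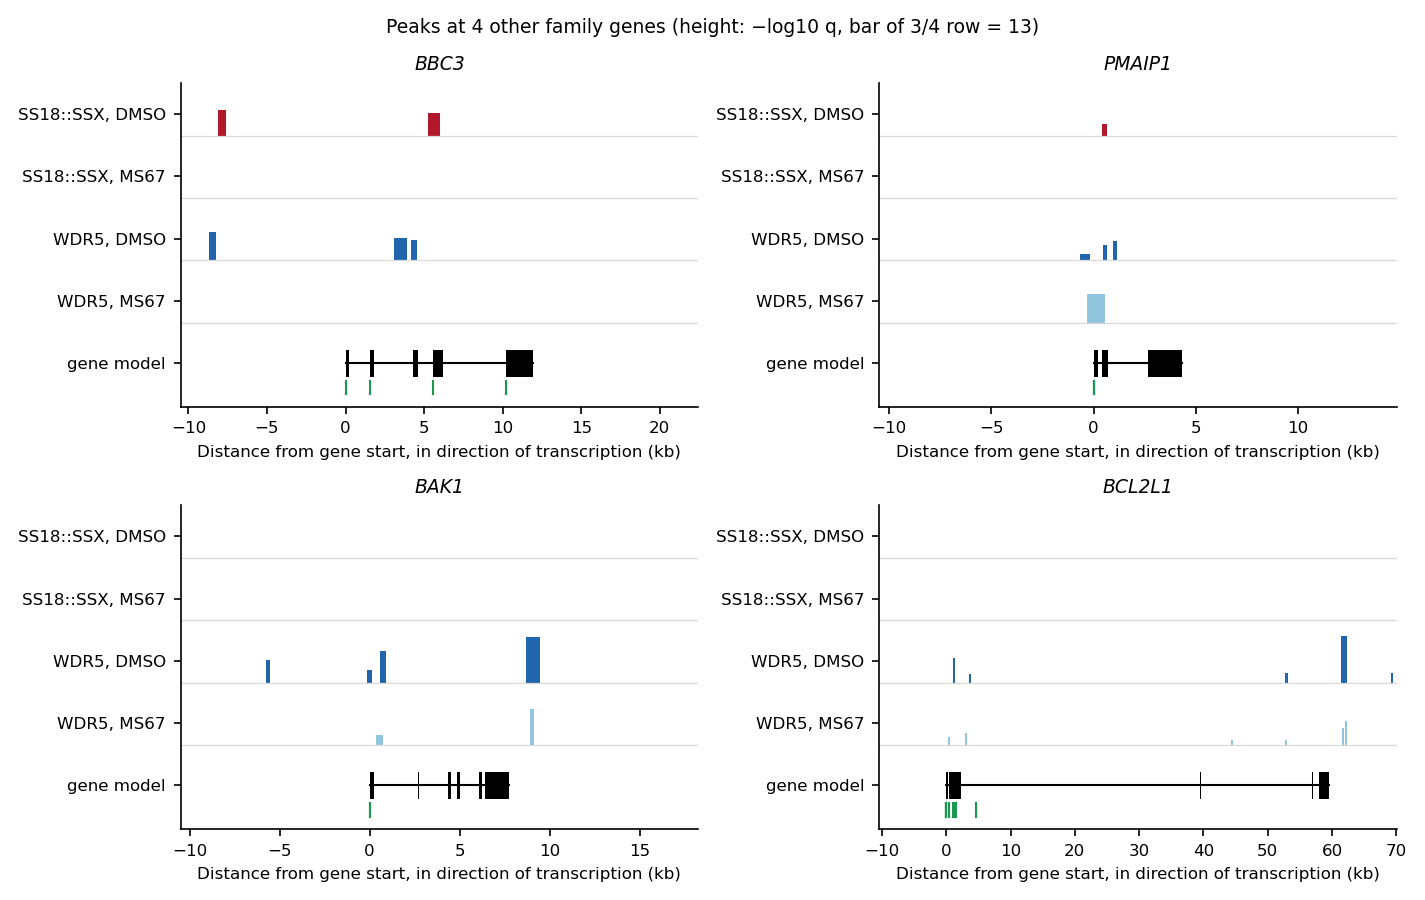
Peaks at *BBC3*, *PMAIP1*, *BAK1*, and *BCL2L1* by distance from the gene start in kb (horizontal axis, direction of transcription to the right), with 1 row per library and bar height proportional to −log10 q on the same scale as for *BCL2*; boxes are exons and green ticks start sites. The MS67 rows of *BBC3* are empty, *PMAIP1* has its tallest WDR5 bar with MS67, and the strong WDR5 bars beyond the 3′ ends of *BAK1* and *BCL2L1* recur with MS67.

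With DMSO, 30 of the 40 WDR5 peaks of the family were centred at no promoter of any gene, and 33.7% of the whole list were at one. With MS67, 8 of 16 were centred at no promoter, 3 at a family gene's own and 5 at another gene's, and 46.3% of the whole list were at one. With DMSO, 21 of the 40 summits were in introns, 7 upstream, 5 downstream, 4 in coding exons, 2 in a 3′ UTR, and 1 in a 5′ UTR. Of the 7 peaks at a family gene's own promoter 6 were lost with MS67 (85.7%, interval 42.1 to 99.6). Of the 33 others 25 were (75.8%, interval 57.7 to 88.9), and no share of the whole list off promoters was computed. The lost promoter peaks of *BCL2L2* and *BAK1*, and the weaker one of *BCL2L1*, would not have passed at the MS67 coverage. Those of *BCL2L1* and *BAK1* had an MS67 WDR5 peak within 1 kb. Over the whole WDR5 list, 64.0% of peaks centred at a promoter of any gene were lost, which lies within the interval of the 7. With MS67, 7 of the 16 WDR5 peaks had no overlapping DMSO peak, against 35.6% of the whole list, and 3 of the 16 had none within 1 kb, against 19.1% of the list. Those 3 were in introns of *BCL2* and *BCL2L1* and at the *PABPN1* promoter.

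The promoters themselves were compared with those of other genes. RefSeq (GRCh38.p14) gives 9 promoters of 300 bases for 8 of the 10 genes, and *MCL1* and *BCL2L2* were not matched. A GC box was found in 5 of the 9, against 45.0% of all 35116 promoters, a CCAAT box in 4, against 34.6%, and an E box in 2, those of *BAX* and *BBC3*, against 7.26%. Their G and C content had a median of 61.3%, against 58.7% over all.

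The rest of the pathway was read from lists fixed by name. Of 11 other BCL2 family genes, 2 had an SS18::SSX promoter peak with DMSO and 0 with MS67, and 6 had a WDR5 promoter peak with DMSO and 3 with MS67. Over all genes the 4 shares were 13.4%, 0.719%, 43.0%, and 27.7%. The 2 were *HRK* and *BIK*, both BH3-only genes, with their highest −log10 q at 5.63 and 2.86. The *BIK* peak and the stronger of 2 *HRK* peaks overlapped WDR5 with DMSO. WDR5 with MS67 was at *BCL2L12*, *BCL2L13*, and *BIK*. The second list held 13 other genes of mitochondrial apoptosis, among them channels of the outer membrane. Of these 13, 5 had an SS18::SSX promoter peak with DMSO and 0 with MS67. A WDR5 promoter peak stood at 8 with DMSO and 7 with MS67, against the same 4 shares of all genes. WDR5 was at 5 of these promoters after both treatments, and at *CASP9* and *BIRC2* with MS67 alone. The 5 with SS18::SSX were *VDAC2*, *CYCS*, *APAF1*, *DIABLO*, and *BIRC5*, with −log10 q from 1.34 to 4.09. *CYCS*, the gene of cytochrome c, had its SS18::SSX peak within a strong WDR5 peak (−log10 q of 11.2 with DMSO), and neither was called with MS67. *DIABLO*, whose product opposes the inhibitors of apoptosis, had a WDR5 peak after both treatments, with a −log10 q of 13.1 with DMSO and 3.15 with MS67. *VDAC2*, which encodes a channel of the outer mitochondrial membrane, also kept its WDR5 peak, with folds of 5.94 and 8.87.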

How the data were processed

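The authors aligned CUT&RUN reads of 4 libraries, 1 per condition, to hg38 with Bowtie2, removed duplicates with Picard, and called peaks with MACS2. The submitters' processing notes name SAMtools 1.9, bedtools 2.28.0, and deepTools 3.3.0, and the study's methods another Samtools version. The MACS2 command's options and any control library are not given in the sources used here. The supplement gives a standard on q and fold for one comparison of lists, which was added as an alternative after seeing the data. The deposited fold is a ratio of summit pileup to local background, each with 1 added. The deposited −log10 p and −log10 q are from MACS2. The deposited score was not used.

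Whole fragment numbers were recovered from fold and p for 100% of peaks (tolerance 0.001 in −log10 p), and the lowest background was taken as coverage. This step was checked on simulated data. Peaks were matched by an overlap of at least 1 bp, with intervals by Clopper-Pearson (shares) or Poisson (fragments, exact). All family genes were named with every count, and pathway lists, neighbours with a peak at their promoter, and the genes most like *BCL2* by a fixed rule. The *BBC3* and *BCL2* intron sequences were chosen after their values were seen. The others followed a rule, the promoter peak with the highest −log10 q in each role group and then in the next gene. That next gene was *BCL2L1*, whose peak lay in a UTR and is not printed. Genes and lists were chosen with earlier results of these data known, and 1 gene of the pathway lists is not reported here. Alternatives were other windows, promoters, overlaps, and a −log10 q above 3. Signals scaled to the spike-in were not used here. Tools were Python 3.11.15, with pandas 2.3.3, numpy 2.4.6, and scipy 1.17.1, while matplotlib 3.10.9 drew the figures.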

Additional observations from a re-analysis of the deposited data

How the results depend on the processing

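Over 60 alternatives to 11 results, 11 of them added after seeing the data, 43 gave values close to those reported and 17 moved. A count was called close within a fixed factor of the reported one, and a share within the reported interval. Whether a difference between treatments reversed was not scored. By the study's standard, genes with a WDR5 promoter peak changed order, from 5 with DMSO and 3 with MS67 to 0 and 1. With 50 kb on either side of the gene in place of 10 kb, the SS18::SSX peaks with DMSO rose to 14, and the WDR5 peaks to 66 with DMSO and 28 with MS67, since a wider window holds more peaks. With a −log10 q above 3, WDR5 with MS67 had 9 peaks and SS18::SSX with MS67 had 0, so the single MS67 peak of the fusion at *BCL2* rests on the lower threshold. With only the gene record's first position as the start, a promoter peak stood at 1 gene for SS18::SSX with DMSO, at 3 for WDR5 with DMSO, and at 0 for WDR5 with MS67, so the promoter calls of *BBC3*, *BCL2L1*, *BCL2L2*, and, with MS67, *PMAIP1* rest on other annotated starts. With an overlap of 50% of a peak's own length, the WDR5 loss was 90%. The share of the whole WDR5 list under that rule was not computed, so the 90% cannot be read as a result about the family. Within 1 kb, 100% of the SS18::SSX peaks had WDR5. By the study's standard on q and fold (the added alternative), SS18::SSX with MS67 had 0 peaks, WDR5 had 4 with DMSO and 4 with MS67, a WDR5 promoter peak stood at 0 genes with DMSO and 1 with MS67, the WDR5 loss was 50%, and 0% of SS18::SSX peaks overlapped WDR5, since few WDR5 peaks reach a fold of 6. The whole-list shares that match this 50% and 0% were not computed either. No paired analysis was possible because each condition was 1 library. The MS67 WDR5 peaks rested on as few as 3 fragments, and peaks not called with MS67 may lie under the detection limit of that library.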
